A study of Homo sapiens with 18 samples.

Results

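The cisplatin response of Acis cells was compared with that of A2780 cells by testing the difference between the 2 responses for each gene. A2780 is an established human ovarian cancer line that is sensitive to cisplatin, and Acis (A2780cis) is its resistant derivative. RNA was sequenced from 4 groups of 3 libraries: A2780 control, A2780 treated for 3 h with 200 µM cisplatin, Acis control and Acis treated in the same way. The Acis culture was given 1 µM cisplatin every 3 passages, so both Acis groups share a treatment that neither A2780 group had. Acis is a single selected line, and the external dose was the same in both lines. All 12 RNA libraries of the 18 samples in the series entered the comparison, and 15760 of the 23622 genes in the table had enough reads to be tested. Each response is the log2 fold change of treated over control cells of a line. The line difference is the Acis response minus the A2780 response, so a gene that rose in both lines but less in Acis has a negative difference, and a gene that fell less in Acis has a positive one.

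Cisplatin forms adducts between neighbouring bases of a DNA strand, and also crosslinks the strands to each other. The adducts stall RNA polymerase, are removed by nucleotide excision repair, and at replication engage the Fanconi anemia, recombination and translesion pathways. The early transcriptional answer to such stress includes the immediate-early genes, short genes that stress-activated kinases switch on without new protein synthesis, and the targets of p53, among them cell cycle inhibitors and genes of cell death. Total RNA depleted of ribosomal RNA, as used here, also holds unfinished transcripts and transcripts without a poly(A) tail.

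The deposited libraries held between 4130644 and 5072216 counts. Replicates were wells seeded in triplicate for each condition, and pairs within a group differed by 0.73 to 1.53 times the variance expected from counting alone, with all 3 pairs of A2780 controls under 1, so the p-values measure the spread between wells, which may be technical. Where the closest pair was counted as 1 sample in all 4 groups, 1613 differences were more positive and 501 more negative, against 2113 and 863 otherwise. Markers that define an ovarian epithelial origin were sparse: of 6 epithelial markers only KRT18, KRT8 and EPCAM were in the table, at up to 146, 17.2 and 4.2 normalised reads in any group mean. PAX2 averaged 1066 normalised reads in A2780 controls and 0 in Acis controls. COL1A1, a fibroblast marker, averaged 844 in A2780 controls and 16.4 in Acis controls, and the only leukocyte marker in the table, CD14, stayed at or below 2.9.

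The difference between lines passed the test for 2976 genes, 18.9% of those tested (edgeR quasi-likelihood test, Benjamini-Hochberg adjusted p under 0.05). Of these, 2113 genes (13.4%) were more positive in Acis and 863 (5.48%) more negative. In A2780, 3347 genes (21.2%) rose and 4451 (28.2%) fell. In Acis, 1474 genes (9.35%) rose and 1962 (12.4%) fell. The split of calls depends on scaling and filtering. As normalised here 71% were more positive in Acis, and with total counts as library size 48.2%. It was 53.6% in a fit kept to genes with a mean of at least 50 counts, which also redid the scaling on those genes. DESeq2 gave 81%, and a fit with a trend with gene length removed gave 81.2%. In that last fit the trend already held the overall shift of each library, and the scaling was applied on top. Its counts therefore mix length with scaling. In bulk RNA, fewer cells of a kind and less RNA per cell cannot be told apart, and all values are relative to the other genes of a library.

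**Figure D1:**
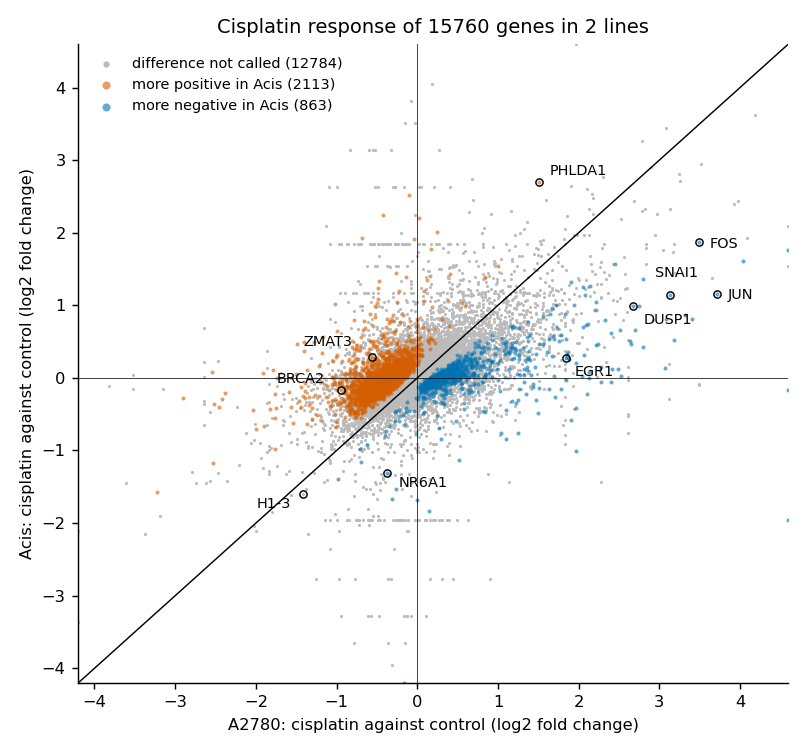
Cisplatin response in A2780 (x axis) and Acis (y axis) as log2 fold changes of treated over control cells, n = 3 libraries a group, for all 15760 tested genes, with genes beyond the axes drawn at the edge. Genes with a called difference are orange (2113, more positive in Acis) or blue (863, more negative), the diagonal marks equal responses, and FOS, JUN, SNAI1, DUSP1 and EGR1 lie to the right of it.

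To sort genes by how alike the lines responded, responding genes were taken from the mean of both responses. On median its error was nearly unrelated to that of the difference (correlation 0.02 over tested genes and 0.12 over responding genes). Genes with unequal errors in the lines depart from this, among them JUN (SE of the response 0.26 in A2780 and 0.13 in Acis) and NFKBIZ (0.05 and 0.12). Among rising genes, choice by the mean favours a more negative difference where the A2780 error is larger. It favours a more positive one where the Acis error is larger, and the size of this effect was not tested. A mean response of at least 1 on the log2 scale passed for 536 genes (3.4%), of which 428 rose and 108 fell. Of the 428 that rose, 64 rose less in Acis, 6 rose more, and 4 had a 95% interval of the difference within 0.5. Of the 108 that fell, 17 fell less in Acis, 2 fell more and 5 lay within that margin. The remaining 354 and 84 genes could not be placed, and their median levels were 11 and 10.6 counts. With a mean response of at least 0.5, which 1836 genes (11.6%) passed, 159 of 1191 genes rose less in Acis and 19 more, while 171 of 645 fell less and 13 more. Another 54 that rose and 148 that fell were within the margin. Over the 1191 genes the median response was 1.01 in A2780 and 0.73 in Acis, a ratio of 0.717, and over the 645 it was -0.79 and -0.51, a ratio of 0.638. In the 19 genes that fell by at least 1 on average and had a mean of at least 50 counts, the medians were -1.08 and -1.17 (ratio 1.08), and the response was smaller in Acis for 8 of them, without a test. Over all tested genes the median difference was 0.03, against -0.03 with total counts as library size. It was -0.01 in a fit kept to genes with at least 50 counts, with the scaling redone on them. In the main fit the interval lay within 0.5 for 7485 of the tested genes (47.5%).

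The immediate-early genes rose strongly in A2780, and most of them rose less in Acis. Of the 10 EGR and NR4A factors with ARC, 9 (90%) had a more negative difference and none a more positive one, with median responses of 1.71 in A2780 and 0.33 in Acis and a median difference of -1.27. ARC and EGR2 had been chosen by the study on these samples for high Acis controls and a rise in A2780, so their direction is not independent evidence. EGR1, EGR3, JUN and PLK2 also had higher Acis controls and a rise in A2780. The lists of this paragraph were chosen with earlier results of these data known, so their counts are descriptive. Of the 15 AP-1 and MAF factors, of which 60% were called, 7 were more negative and 2 more positive, with medians of 0.95 and 0.45. The IER, GADD45, BTG and ZFP36 genes, which mostly encode regulators that shut off growth signals and short-lived RNAs, held 11 more negative and 1 more positive of 17 (70.6% called). Of 15 feedback genes of the MAP kinase pathway, 2 were more negative and 1 more positive, and the interval of 10 lay within the margin. The share called was 20%, against 18.9% of all tested genes. For lists, genes within the margin are counted whether or not their difference was called, since a small difference can pass the test.

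The promoters of 5 genes are shown because the genes rose together and the 250 bases before their start sites hold matches to a stimulus element (EGR1, DUSP1 and PPP1R15A) or to the TATA box of the core promoter (all but EGR1). They are RefSeq sequences of GRCh38.p14, read 5′ to 3′ on the strand of the gene. Capitals mark a cAMP response element (TGACGTCA), a CArG box or a TATA box (TATAAA). FOS, EGR1, DUSP1 and PPP1R15A rose less in Acis and NFKBIZ rose more. They lie at chr14:75278578-75278827 (plus strand), chr5:138465229-138465478 (plus), chr5:172771196-172771445 (minus), chr19:48872171-48872420 (plus) and chr3:101827740-101827989 (plus), in that order.
FOS: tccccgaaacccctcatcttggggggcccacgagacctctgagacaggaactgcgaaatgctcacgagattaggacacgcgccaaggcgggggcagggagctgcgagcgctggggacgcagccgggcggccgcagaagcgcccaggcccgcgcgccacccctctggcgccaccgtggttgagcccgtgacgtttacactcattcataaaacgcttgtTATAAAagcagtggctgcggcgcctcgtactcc
EGR1: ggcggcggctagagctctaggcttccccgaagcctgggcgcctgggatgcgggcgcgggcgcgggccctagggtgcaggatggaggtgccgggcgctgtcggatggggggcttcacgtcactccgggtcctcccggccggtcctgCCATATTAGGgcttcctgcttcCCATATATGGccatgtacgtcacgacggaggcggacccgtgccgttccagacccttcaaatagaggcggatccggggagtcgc
DUSP1: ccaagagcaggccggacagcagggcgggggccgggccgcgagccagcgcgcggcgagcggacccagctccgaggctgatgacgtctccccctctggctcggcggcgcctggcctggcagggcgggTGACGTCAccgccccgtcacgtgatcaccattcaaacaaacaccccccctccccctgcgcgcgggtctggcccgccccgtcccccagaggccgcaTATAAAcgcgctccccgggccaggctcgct
PPP1R15A: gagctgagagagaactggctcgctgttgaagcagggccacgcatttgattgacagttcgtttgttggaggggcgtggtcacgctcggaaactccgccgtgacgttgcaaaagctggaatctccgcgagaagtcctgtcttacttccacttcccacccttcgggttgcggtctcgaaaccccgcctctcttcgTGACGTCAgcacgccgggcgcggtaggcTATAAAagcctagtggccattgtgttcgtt
NFKBIZ: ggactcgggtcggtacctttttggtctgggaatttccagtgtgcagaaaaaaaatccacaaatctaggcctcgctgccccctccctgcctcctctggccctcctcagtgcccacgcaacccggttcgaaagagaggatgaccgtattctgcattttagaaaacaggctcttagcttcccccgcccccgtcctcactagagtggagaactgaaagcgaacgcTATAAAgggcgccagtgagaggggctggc

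The TATA box ends 27 bases before the start in FOS, 24 in DUSP1 and PPP1R15A, and 23 in NFKBIZ. The cAMP response element ends 117 bases before the start in DUSP1 and 50 in PPP1R15A, and the CArG boxes of EGR1 end at 95 and 73. Of the 64 genes that rose less in Acis, 40 matched a promoter in the table: 4 (10%) held the cAMP response element on either strand, 9 (22.5%) the TATA box, 1 (2.5%) a CArG box and 1 (2.5%) an AP-1 site (TGANTCA, which the cAMP element does not contain). Of 10732 tested genes with a promoter, 2.99%, 5.26%, 0.969% and 3.5% held them. Of all 27305 promoters, 1.77%, 11.1%, 1.14% and 6.6% did. NFKBIZ shares the TATA box with FOS although its difference had the opposite sign. These are matches to letters only.

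FOS, which pairs with JUN to form the AP-1 factor, counted 74.6, 75 and 71.5 normalised reads in A2780 controls and 828, 822 and 834 after cisplatin, against 73.2, 68.2 and 80.9 in Acis controls and 276, 273 and 261 after cisplatin. The controls of both lines overlapped and the treated libraries did not. FOS rose by 3.49 in A2780 and 1.87 in Acis, a difference of -1.62 ± 0.13 (SE, adjusted p = 4.51e-09). JUN counted 8.4, 10.6 and 12.8 in A2780 controls and 156, 121 and 142 after cisplatin, and 72.2, 58.6 and 51.3 in Acis controls and 130.5, 135 and 142 after cisplatin. Here the treated libraries overlapped and the Acis controls were higher, and the difference was -2.56 ± 0.29 (adjusted p = 1.14e-07). ATF3, a repressive partner of the same family, rose by 2.21 and 1.04, and FOSB by 2.14 and 1.26. MAFF, a small MAF factor, rose by 1.56 and 0.86, and JUNB by 0.96 and 0.41. FOSL2 rose by 0.75 and 0.45. The genes with a more positive difference, ATF2 and ATF7, did not rise in either line: ATF2 responded by -0.35 and -0.02 and ATF7 by -0.69 and -0.37. JUND, MAFK, MAFG and JDP2 had intervals within the margin.

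EGR1, a zinc finger factor that growth factors and stress induce within minutes, counted 336, 358 and 354 in A2780 controls and 1251, 1266 and 1242 after cisplatin, against 1197, 1129 and 1135 in Acis controls and 1380.2, 1400 and 1395 after cisplatin. The Acis controls lay just below treated A2780 cells, and no groups overlapped. EGR1 rose by 1.84 and 0.27, a difference of -1.57 ± 0.06 (adjusted p = 5.74e-17). EGR2 counted 11.2, 18.3 and 17.1 in A2780 controls and 47.8, 52.3 and 44.2 after cisplatin, against 402, 383 and 404 in Acis controls and 364, 335 and 374 after cisplatin. It rose by 1.63 in A2780, while its Acis response of -0.15 did not pass the test. EGR3 rose by 1.78 and 0.60, EGR4 by 2.80 and 1.36, and ARC, an activity-induced gene best known from neurons, by 2.09 and 0.72. The orphan nuclear receptors NR4A2 and NR4A3 differed by -1.37 and -0.89, and NR4A1 by -0.27. NAB2, a co-repressor of EGR factors, differed by -0.26, and NAB1, the member that was not called, by 0.32.

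DUSP1, a phosphatase that turns off stress-activated MAP kinases, counted 46.6, 50 and 39.5 in A2780 controls and 268, 298 and 308 after cisplatin, against 65.8, 69.2 and 76.4 in Acis controls and 149, 129 and 141 after cisplatin. Acis controls were somewhat higher than A2780 controls, no treated Acis library reached a treated A2780 library, and the difference was -1.68 ± 0.17 (adjusted p = 1.14e-07). DUSP2 rose by 1.15 in A2780 and 0.42 in Acis. DUSP5 responded alike, by 0.64 and 0.63, with the interval of its difference at -0.30 to 0.28. DUSP6 and the Sprouty genes SPRY1, SPRY2 and SPRY4, which restrain the ERK branch, also lay within the margin. SPRED1, another inhibitor of that branch, had a difference of 0.35, having fallen in A2780 by 0.40.

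PLK2, a stress-induced kinase, counted 169, 168 and 182 in A2780 controls and 625, 659 and 629 after cisplatin, against 674, 743 and 688 in Acis controls and 833, 844 and 853 after cisplatin. Every Acis control lay above every treated A2780 library, and the difference was -1.62 ± 0.08 (adjusted p = 3.06e-14). PPP1R15A, which directs the phosphatase that restores translation after stress, counted 167, 164 and 138 in A2780 controls and 538, 529 and 526 after cisplatin, against 143, 114 and 137 in Acis controls and 196, 178 and 187 after cisplatin. Its controls overlapped between lines, as for FOS, and the difference was -1.25 ± 0.12. GADD45B, IER5 and ZFP36 differed by -0.95, -0.76 and -0.91, and BTG1, an antiproliferative gene, rose by 2.07 and 1.14. All 17 genes of this list rose in A2780 and 15 in Acis. BTG2, IER3, BTG3 and ZFP36L2 were within the margin.

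**Figure D2:**
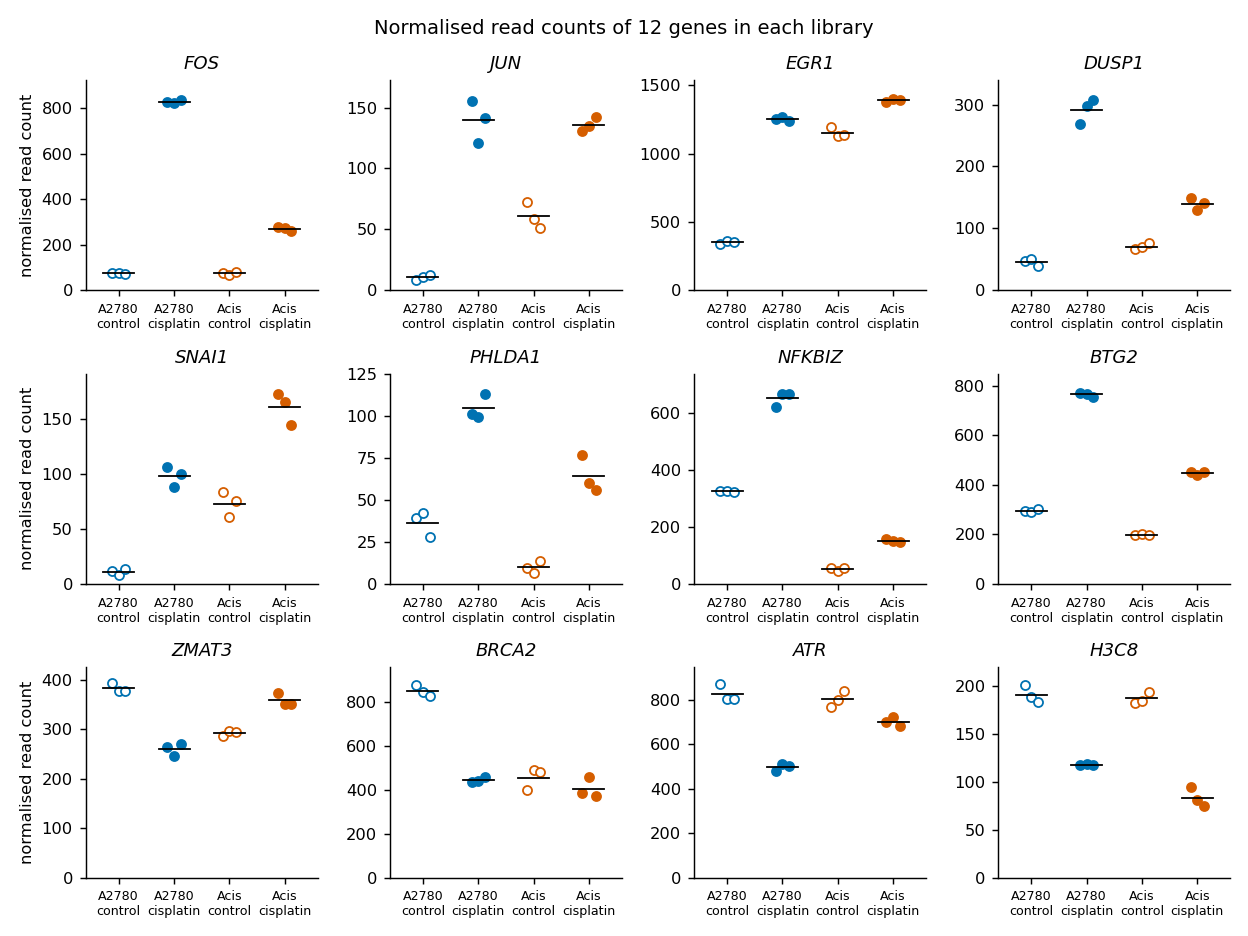
Normalised read counts (y axis) of 12 genes in each of the 3 libraries of the 4 groups (x axis), with group means as lines and open symbols for controls. FOS starts alike in both lines and ends apart, JUN, EGR1 and SNAI1 start higher in Acis controls, BTG2 rises in both lines, ZMAT3 moves in opposite directions, and BRCA2 and ATR fall mainly in A2780.

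SNAI1, a repressor of epithelial genes, counted 12.1, 7.7 and 13.9 in A2780 controls and 107, 88.1 and 100.2 after cisplatin, against 83.9, 60.7 and 75.2 in Acis controls and 173, 166 and 145 after cisplatin. The groups did not overlap, and the highest Acis control lay just under the lowest treated A2780 library. SNAI1 rose by 3.13 and 1.14, a difference of -1.99 ± 0.28 (adjusted p = 4.21e-06). MYLIP, the ubiquitin ligase that degrades the LDL receptor, counted 1.9, 4.8 and 3.2 in A2780 controls and 22.5, 25.2 and 20.6 after cisplatin, against 88.1, 106 and 88.9 in Acis controls and 171, 183 and 210.2 after cisplatin. It rose by 2.75 and 0.99, and the low A2780 control values left a wide interval for the difference, from -2.74 to -0.78. ANKH, a pyrophosphate exporter, was at 0 in all A2780 controls and at 6.6, 3.9 and 2 after cisplatin, against 180.5, 162 and 176 in Acis controls and 161, 152 and 149 after cisplatin. Taking 3 counts over the group as the limit of a count of 0, ANKH was at least 4.13-fold higher in treated A2780 cells, and its Acis change did not pass the test. ARC, EGR2, SNAI1, MYLIP, TBR1, RHOV and OSGIN1, the primed genes followed by real-time PCR, all had a more negative difference (7 of 7), with medians of 1.63 and 0.50. They had been chosen on these samples for high Acis controls and a rise in A2780, so their direction is not independent evidence. The same holds where they are counted in the EGR, sterol, EMT and NRF2 lists.

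Few genes rose more in Acis. PHLDA1, a stress-induced protein with a pleckstrin homology-like domain, counted 39.2, 42.3 and 27.8 in A2780 controls and 101, 99.7 and 113 after cisplatin, against 9.6, 6.4 and 13.7 in Acis controls and 76.8, 60.1 and 56 after cisplatin. Its Acis libraries were lower than those of A2780 both before and after cisplatin, and it rose by 1.51 and 2.70, a difference of 1.20 ± 0.33 (adjusted p = 0.00803). NFKBIZ, a nuclear co-factor of NF-kB, counted 324, 327 and 322 in A2780 controls and 621, 664 and 664 after cisplatin, against 54.1, 45.8 and 57 in Acis controls and 156, 152 and 147 after cisplatin. It rose by 1.00 and 1.54. ADM, the vasodilator peptide adrenomedullin, rose by 0.83 and 1.38, from 154, 166 and 158 in A2780 controls and 35, 27.7 and 30.8 in Acis controls. The divergent transcripts NIPBL-DT and PDCD6IP-DT, noncoding RNAs read away from their neighbour's promoter, differed by 0.48 and 0.51. None of these 5 differences passed with DESeq2. Without Acis control replicate 2, PHLDA1 had a difference of 0.96 (adjusted p = 0.0523) and ADM of 0.47 (adjusted p = 0.126), and ADM was also lost without A2780 control replicate 2, A2780 cisplatin replicate 3, Acis control replicate 3 or Acis cisplatin replicate 3, at 0.48 to 0.55.

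The targets of p53 had near-equal median responses in the lines. Of 32 p53 targets, 19 rose and 3 fell in A2780, and 20 rose and 1 fell in Acis, with median responses of 0.24 and 0.23. The interval of the difference lay within the margin for 20, while 4 were more positive in Acis and 4 more negative. Over all tested genes 47.5% lay within the margin, and 18.9% were called against 25% of this list. The response was smaller in size in Acis for 22 of the 32, without a test. CDKN1A, the cyclin-dependent kinase inhibitor p21, counted 537, 524 and 533 in A2780 controls and 947, 956 and 969.5 after cisplatin, against 153, 154 and 149 in Acis controls and 255, 253 and 299 after cisplatin. It rose by 0.85 and 0.82, with the interval of the difference at -0.22 to 0.16. BTG2 counted 295, 292 and 301 in A2780 controls and 773, 768 and 756 after cisplatin, and 196, 201 and 199.5 in Acis controls and 451, 441 and 454 after cisplatin, and rose by 1.37 and 1.17. SESN1, SESN2, DDB2, TNFRSF10D and TP53I3 also lay within the margin. TNFSF9, a costimulatory ligand, and LINC00938 were the other genes with the largest rises inside it, at 1.33 and 1.18 for TNFSF9 and 1.21 and 1.19 for LINC00938.

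The p53 targets that differed did so in both directions. ZMAT3, an RNA-binding tumour suppressor, counted 394, 378 and 378 in A2780 controls and 264, 246 and 271 after cisplatin, against 287, 297 and 294 in Acis controls and 373, 350.5 and 351 after cisplatin. It fell in A2780 by 0.56 and rose in Acis by 0.29, with no overlap of treated and control libraries in either line (difference 0.85 ± 0.08, adjusted p = 8.06e-08). MDM2, the ubiquitin ligase that degrades p53, counted 1104, 1143 and 1146 in A2780 controls and 955, 966 and 993 after cisplatin, and 1024, 1109 and 1122 in Acis controls and 1208, 1247 and 1155 after cisplatin. It likewise fell by 0.22 in A2780 and rose by 0.15 in Acis. RRM2B, the p53-induced ribonucleotide reductase subunit, and FBXO22 differed by 0.33 and 0.32. FDXR, PIDD1, PLK3 and PMAIP1 rose in A2780 by 0.74, 0.71, 1.91 and 1.67 and differed by -0.55, -0.46, -0.58 and -0.71. PMAIP1, the death factor NOXA, counted 14.9, 11.5 and 23.5 in A2780 controls and 53.5, 50.3 and 54 after cisplatin, and 66.9, 54.3 and 63.8 in Acis controls and 132, 118 and 110 after cisplatin, and its call was lost with DESeq2 and on leaving out most single libraries (all but A2780 control replicate 3, A2780 cisplatin replicate 2, Acis control replicate 2 and Acis cisplatin replicate 1). In the BCL2 family of 14, the guardian BCL2 differed by 0.49 and BAD, a sensitiser, by -0.37, while MCL1, BCL2L1, BAX, BAK1 and BCL2L11 lay within the margin.

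Gene length moved with the difference. The median A2780 response went from 0.22 for genes of 1 to 10 kb to -0.47 for genes over 300 kb, and the median Acis response from 0.09 to -0.24. A more positive difference was called for 2.69% of genes of 1 to 10 kb and for 28.6% of genes of 100 to 300 kb, a more negative one for 12.4% and 0.712%. The shares did not keep rising with length: over 300 kb, 14.8% were more positive and 1.17% more negative. Per unit of log10 length, the response fell by 0.279 ± 0.010 in A2780 and by 0.122 ± 0.011 in Acis (mean ± SD over the 3 treated libraries). Slopes of the single libraries were -0.286, -0.282 and -0.267 in A2780 and -0.124, -0.110 and -0.132 in Acis, without overlap. A two-sided exact permutation test over these libraries gave p = 0.1, the lowest value possible with 3 against 3. Of 12210 protein-coding genes, 16% were more positive and 6.28% more negative in Acis, and of 1878 long noncoding RNA genes, 5.8% and 4.05%.

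**Figure D3:**
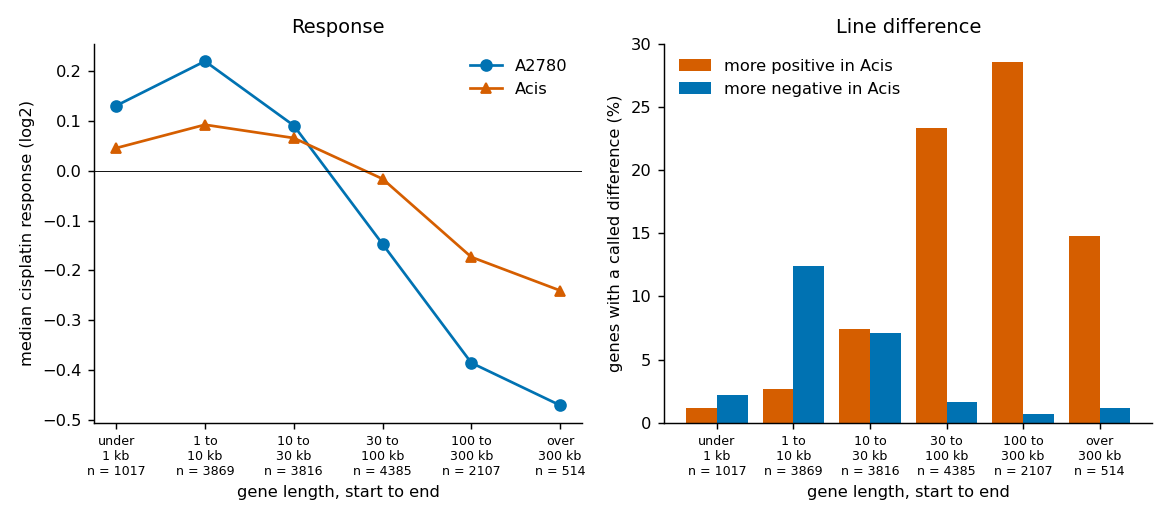
Left, median cisplatin response (log2, y axis) in A2780 and Acis by gene length from start to end (x axis). Right, percentage of genes with a called line difference in each direction. The A2780 line runs from 0.22 at 1 to 10 kb to -0.47 over 300 kb. Calls turn from mostly negative to mostly positive as genes lengthen, but the more positive share drops to 14.8% over 300 kb.

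Many genes of crosslink repair fell in A2780, and those that differed were more positive in Acis. Of 31 Fanconi anemia and homologous recombination genes, 19 fell in A2780 and 7 in Acis, and 11 (35.5%) had a more positive difference and none a more negative one. The median responses were -0.25 and -0.05, and 22 intervals of the difference lay within the margin. These genes are long, with a median of 75563 bases from start to end against 24251 over all tested genes. Once the length trend was removed 6 were called, and calls over all tested genes also fell, from 18.9% to 12.6%. As that fit mixes length with scaling, the part of length in this was not tested. BRCA2, a mediator of recombination at broken DNA, counted 877, 843 and 826 in A2780 controls and 433, 438 and 456 after cisplatin, against 397, 491 and 479 in Acis controls and 386, 457 and 371 after cisplatin. It fell by 0.94 in A2780, its Acis response of -0.17 did not pass the test, and the difference was 0.77 ± 0.10 (adjusted p = 2.54e-06). FANCL, the ubiquitin ligase of the Fanconi core complex, responded by -0.60 and 0.10, and FANCM, its DNA-translocating anchor, by -0.54 and -0.09. XRCC2, MRE11, BLM and BRCA1 differed by 0.41, 0.42, 0.30 and 0.29. The Fanconi gene FANCA had a difference of 0.03, within the margin.

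In translesion synthesis, where specialised polymerases copy past adducts, 7 of 12 genes had a more positive difference and 1 a more negative one, with median responses of -0.15 and -0.02. The share called was 66.7%, against 18.9% of all tested genes. Of all tested genes 13.4% were more positive, and of those of 30 to 100 kb 23.4%. REV3L, the catalytic subunit of polymerase zeta, counted 593, 586 and 576 in A2780 controls and 315, 344 and 349.7 after cisplatin, against 773, 803 and 850.2 in Acis controls and 654, 663 and 623 after cisplatin. It fell by 0.80 in A2780 and fell by 0.32 in Acis, a difference of 0.48 ± 0.07 (adjusted p = 2.56e-05). Its partner MAD2L2, a short subunit, went the other way with a difference of -0.30. HLTF and SHPRH, ligases that extend ubiquitin chains on PCNA, differed by 0.41 and 0.45. POLH, the polymerase that bypasses platinum adducts, differed by 0.11, within the margin. The median length of the list was 72994.5 bases, and 5 were called with the length trend removed, in the fit that mixes length with scaling.

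ATR, the kinase that senses stalled forks, counted 872, 803 and 805 in A2780 controls and 479, 513 and 503 after cisplatin, against 765, 799.8 and 841 in Acis controls and 702, 721 and 683 after cisplatin. It fell by 0.73 in A2780 and fell by 0.19 in Acis, a difference of 0.54 ± 0.07 (adjusted p = 2.54e-06). ATM, the kinase of double-strand breaks, fell by 0.61 in A2780 and changed by -0.13 in Acis. RAD9A, of the sliding clamp that activates ATR, rose by 0.68 in A2780 and differed by -0.52. Among 23 checkpoint genes, 4 were more positive and 3 more negative in Acis, and 20 lay within the margin, CHEK1, CHEK2 and TP53BP1 among them. The share called was 30.4%, against 18.9% of all tested genes. In mismatch repair, whose proteins recognise platinum adducts, PMS1 and MSH3 differed by 0.46 and 0.26 and 6 of 7 genes lay within the margin.

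In nucleotide excision repair, 29 of 37 genes lay within the margin, with 3 more positive and 3 more negative, 16.2% called against 18.9% of all genes. ERCC1, which forms with ERCC4 a nuclease that cuts the strand beside the lesion, counted 393, 391 and 394 in A2780 controls and 495, 489.9 and 458 after cisplatin, against 449, 424 and 479.8 in Acis controls and 430, 405 and 392 after cisplatin. It rose by 0.29 in A2780, its Acis response of -0.14 did not pass the test, and the difference was -0.43 ± 0.08 (adjusted p = 2.59e-04). ERCC4 differed by 0.32 and GTF2H3, a TFIIH subunit, by 0.35. XPC, DDB1 and DDB2, which recognise damage in the whole genome, differed by 0.03, -0.04 and -0.19, within the margin. ERCC6 and ERCC8, which act at stalled polymerases, differed by 0.36 and 0.25 and were not called. ERCC4 and GTF2H3 did not pass with DESeq2.

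Transporters of platinum and copper that differed were all more positive in Acis. Of 14 genes, 8 fell in A2780 and 2 in Acis, with median responses of -0.46 and -0.11. A more positive difference was called for 6 (42.9%), against 13.4% of all tested genes. These genes are long too, with a median of 82670 bases, and 23.4% of all genes of 30 to 100 kb were more positive. ABCC4, an exporter of organic anions, counted 637, 629.9 and 585 in A2780 controls and 352, 407 and 393 after cisplatin, against 608, 690.1 and 622 in Acis controls and 535, 574 and 536 after cisplatin. It fell by 0.69 in A2780 and fell by 0.22 in Acis, a difference of 0.47 ± 0.08 (adjusted p = 1.84e-04). LRRC8D, a channel subunit through which cisplatin enters cells, fell by 0.54 in A2780 and responded by -0.10 in Acis. ATP7A, a copper pump, differed by 0.56, and SLC31A1, the copper importer CTR1, by 0.28. With the length trend removed, in the fit that mixes length with scaling, 4 of the 14 were called. ABCC5 and LRRC8D did not pass with DESeq2. Of 12 glutathione S-transferases, 3 were more negative: GSTP1 differed by -0.21, GSTZ1 by -0.37 and GSTO2 by -1.56, and none of the 3 passed with DESeq2. Of 5 metallothionein and metal response genes, the zinc transporters SLC39A10 and SLC30A1 differed by 0.52 and -0.31, and MTF1, the metal-sensing factor, by 0.29. The metallothionein MT2A responded by 0.53 and 0.00 and its difference was not called. Of 18 NRF2 targets, the cystine importer SLC7A11 differed by 0.48 and 4 were more negative, among them SQSTM1 at -0.30 and OSGIN1 at -0.73. HMOX1, NQO1 and TXNRD1 lay within the margin. The shares called were 25% of glutathione S-transferases, 60% of metal response genes and 27.8% of NRF2 targets, against 18.9% of all tested genes.

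Most genes of the ribosome rose in A2780 and few in Acis. Of 79 cytosolic ribosomal protein genes, 58 rose and none fell in A2780, 7 rose and 2 fell in Acis, and 44 (55.7%) were more negative in Acis, with medians of 0.22 and -0.03. The differences were small, with 63 of the 79 intervals within the margin. RPL3 counted 791, 806 and 849 in A2780 controls and 951, 982 and 940.1 after cisplatin, against 942, 923 and 931 in Acis controls and 855, 870.3 and 859.5 after cisplatin. It rose by 0.23 and fell by 0.11, a difference of -0.35 ± 0.05 (adjusted p = 4.25e-05). RPL32 rose by 0.52 in A2780 and responded by 0.03 in Acis, and RPS29 rose in both, by 1.20 and 0.71. With the length trend removed, 13 of the 79 were called, and with total counts as library size 57. Removal of the trend also cut calls over all tested genes from 18.9% to 12.6% and moved the median difference from 0.03 to 0.06. That fit also applied library scaling on top of the trend, and how much of the drop came from length was not tested. Duplicate reads had been removed from single-end data, which limits how many reads a short abundant transcript can hold: these genes had a median of 0.125 counts per exon base against 0.0364 over all tested genes. Small RNA host genes, whose spliced RNA is a by-product of snoRNA production, moved alike: 16 of 21 rose in A2780 and 3 in Acis, and 10 were more negative and 2 more positive. The share called was 57.1%, against 18.9% of all tested genes. SNHG12 counted 266, 254 and 257 in A2780 controls and 412, 409 and 402 after cisplatin, and 429, 423 and 427 in Acis controls and 419, 439 and 441 after cisplatin. The A2780 libraries rose from below to near the level of all 6 Acis libraries (difference -0.63 ± 0.07, adjusted p = 1.16e-06). SNHG5 rose by 1.10 and 0.50, while SNHG14, a long precursor, went the other way with 0.56.

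Protein quality control genes mostly kept within the margin, yet many passed the test. The shares called were 19.4% of proteasome, 35% of heat shock and 29.6% of integrated stress genes, against 18.9% of all tested genes. The interval lay within the margin for 18 of 20 heat shock and 20 of 27 integrated stress genes, against 47.5% of all tested genes. Of 31 proteasome subunits, 18 rose in A2780 and 4 in Acis, 5 were more negative and 29 lay within the margin, PSMC5 at -0.28 among the called. Of 20 heat shock genes, 5 were more negative, such as HSPB1 at -0.31, and 2 more positive, HSPA4L at 0.50 and CHORDC1 at 0.46. HSPA1B, whose reads can be shared with its near-identical copy HSPA1A, rose by 0.57 and 0.30 with its interval within the margin. In the integrated stress and unfolded protein response, 6 of 27 were more negative and 2 more positive. DDIT3, the factor CHOP, rose by 0.90 in A2780, its Acis response of 0.17 did not pass, and the difference was -0.73. Its upstream factor ATF4 responded by 0.17 and -0.04, and HSPA5, CHAC1, DDIT4 and TRIB3 lay within the margin.

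Replication-dependent histone genes fell in both lines, and those that differed were more negative in Acis. Of 53, 34 fell in A2780 and 43 in Acis, and 13 were more negative and none more positive, with medians of -0.34 and -0.52. The share called was 24.5%, against 18.9% of all tested genes called in either direction and 5.48% more negative. Of all genes under 1 kb, 2.16% were more negative. H3C8 counted 201, 188 and 184 in A2780 controls and 117, 118 and 118 after cisplatin, against 183, 184 and 194 in Acis controls and 95, 80.7 and 74.7 after cisplatin. Controls overlapped and every treated Acis library lay below every treated A2780 library (responses -0.70 and -1.16, difference -0.46 ± 0.13, adjusted p = 0.0138). H2BC21, which also makes a polyadenylated transcript, rose by 0.24 in A2780 and fell by 0.52 in Acis. The linker histone H1-3 responded by -1.41 and -1.60 and H4C9 by -1.08 and -1.17, both with the difference within the margin. H2BC8 and H3C11 differed by -0.40 and -0.41. Near-identical histone copies share reads, so single histone values are uncertain, and their median was 0.253 counts per exon base. Without Acis cisplatin replicate 3 the difference of H3C8 was -0.38 (adjusted p = 0.0667). With the length trend removed, in the fit that mixes length with scaling, 6 histone genes were called. With DESeq2 it was 3, and neither set held H3C8, H2BC8 or H3C11. NR6A1, an orphan nuclear receptor of germ cells, counted 1002, 987 and 1071 in A2780 controls and 829, 759 and 775 after cisplatin, and 201, 172 and 171 in Acis controls and 78.7, 76.8 and 64.8 after cisplatin, and fell by 0.37 in A2780 and fell by 1.30 in Acis. FMNL2, a formin that builds actin filaments, fell by 0.39 in A2780 and fell by 0.73 in Acis.

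Most mitotic and replication licensing genes differed by small amounts. Of 23 mitotic genes 21 lay within the margin, yet 10 (43.5%, against 18.9% of all tested genes) passed the test, 7 more positive and 3 more negative. ASPM and CENPE, long spindle and kinetochore genes, differed by 0.43 and 0.35, and PLK1, CDC20 and AURKB by -0.33, -0.30 and -0.30. Of 21 replication licensing genes 20 lay within the margin, ORC4 at 0.39 being the exception. The 24 cyclin and G1 regulators had differences from -1.46 to 3.73 and 14 intervals within the margin. The range takes in members with few reads, such as CDK6, at 0 in every Acis control and 1 in every treated Acis library. The lowest value, -1.46, was not called. Of the 24, 5 were more positive, including the pocket proteins RB1, RBL1 and RBL2 at 0.39, 0.48 and 0.36, and only CDKN2A was more negative, at -0.62. The share called was 25%, against 18.9% of all tested genes. CCND1, CDK2, CDK4 and CDKN1B lay within the margin.

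Other signalling lists were mixed. The shares called were 70% of KLF, 33.3% of ID and TGF-beta and 23.5% of NF-kB genes, against 18.9% of all tested genes. They were 18.2% of Notch and Wnt, 16.7% of hypoxia and glycolysis, 15% of SRF and YAP, 12.5% of EMT and 8.33% of interferon genes. Of 17 NF-kB genes, NFKBIZ and REL were more positive, at 0.54 and 0.36, and NFKBIB and RELA more negative, at -0.38 and -0.30. The feedback inhibitor NFKBIA responded by 0.21 and 0.29, within the margin. Of 10 KLF factors, 4 were more negative and 3 more positive, with KLF2 at -0.79 and KLF7 at 0.45. Of 20 SRF and YAP targets, 3 were called, AMOTL2 lowest at -0.18 and none with DESeq2, and ACTB, SRF and TPM1 lay within the margin. In the ID and TGF-beta list of 12, SMURF2, a ligase that limits the pathway, differed by 0.50 and ID2 by -0.28. Among 11 Notch and Wnt feedback genes, HES1 rose by 1.16 and 0.72 and DKK1, a secreted Wnt inhibitor, differed by 0.47. TXNIP, which binds thioredoxin and senses glucose, rose by 1.63 and 0.53, while the other hypoxia and glycolysis genes called among 18 were ADM and PDK1. Of 12 interferon genes, ISG15 alone was called, at -0.43, and of 8 EMT regulators SNAI1 alone.

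Of 20 sterol genes, 5 were more positive, SC5D, a late enzyme of cholesterol synthesis, at 0.44 among them, and 3 more negative, with MYLIP the farthest. The share called was 40% of sterol, 26.3% of elongation and 25% of the zinc finger genes below, against 18.9% of all tested genes. It was 18.8% of clock, 18.2% of MYC network and 15.8% of very long genes. Of 16 clock genes, CLOCK differed by 0.59 and CIART and PER1 by -0.59 and -0.28. In the MYC and MAX network of 11, MYC and MAX themselves differed by -0.01 and 0.01, and MGA and MNT, which oppose MYC, by 0.23 and -0.35, neither called with DESeq2. In elongation control, the cyclins CCNT1 and CCNT2, which pair with CDK9, differed by 0.39 and 0.45, and HEXIM1, which holds that kinase inactive, by -0.30. Of 19 very long and fragile-site genes, 13 fell in A2780 and 10 in Acis, and LPP, PTPRG and TCF4 were more positive, at 0.56, 0.25 and 0.36. Of 188 zinc finger genes from ZNF500 to ZNF899, 38 were more positive and 9 more negative, with ZNF891 at 0.65 and ZNF689 at -0.51. Of 13 proteins encoded in mitochondrial DNA, 12 lay within the margin, with differences from -0.25 to 0.06. Their median was 0.652 counts per exon base.

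**Figure D4:**
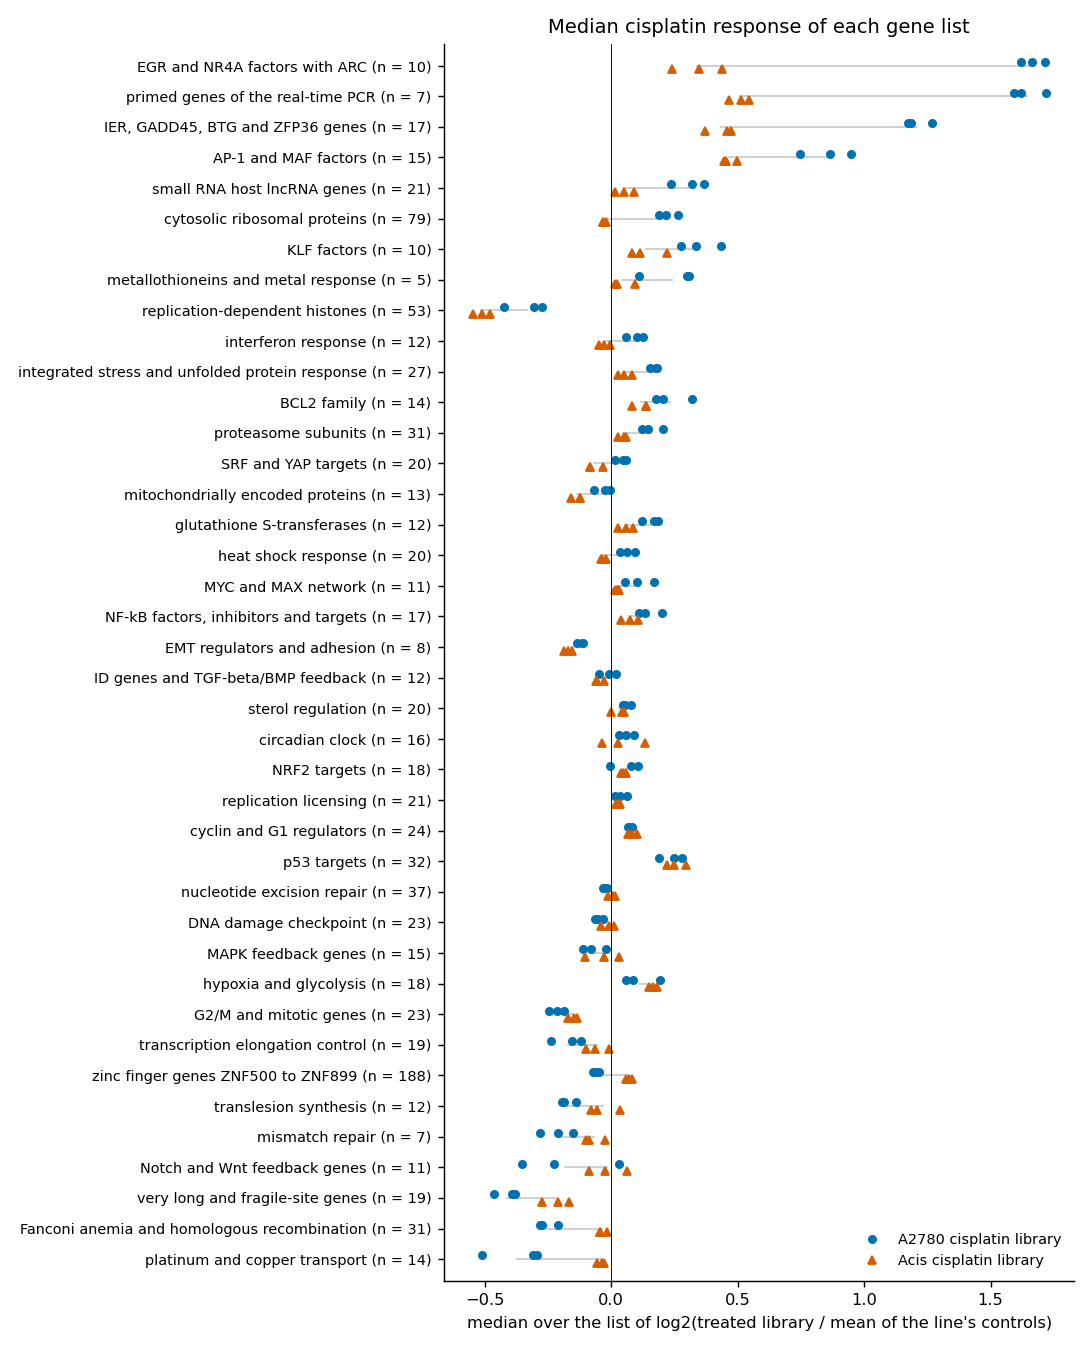
Median cisplatin response of each gene list (rows, with the number of tested genes) in each treated library, as log2 of the treated library over the mean of the controls of its line, after adding a pseudocount of 1 (x axis), circles for A2780 and triangles for Acis. The EGR and NR4A list lies at 1.62 to 1.72 in A2780 and 0.24 to 0.44 in Acis, the p53 list overlaps, and the Fanconi list lies lower in A2780.

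Genes with called responses of opposite sign in the lines, and a called difference, numbered 135 of the 15760 tested. Of these, 119 fell in A2780 and rose in Acis and 16 did the reverse. The split depends on where the scaling puts 0, and it was not counted under other scalings. MIR17HG, the host of an oncogenic microRNA cluster, counted 265, 298 and 273 in A2780 controls and 172, 162 and 163 after cisplatin, against 66.9, 66 and 80.9 in Acis controls and 96, 104 and 80.5 after cisplatin. It fell by 0.75 and rose by 0.40, a difference of 1.15 ± 0.15 (adjusted p = 3.85e-06). PURPL, a p53-induced long noncoding RNA, counted 414, 437 and 449 in A2780 controls and 356, 313 and 348 after cisplatin, and 53.1, 47.9 and 67.2 in Acis controls and 93.1, 97.5 and 92.3 after cisplatin, and responded by -0.35 and 0.75. FILIP1L responded by -0.48 and 1.09 from Acis controls of only 5.3, 6.4 and 4.6. TBR1, a T-box factor of neurons, went the other way from A2780 controls of only 1.9, 3.8 and 2.1, rising by 1.51 in A2780 and falling by 0.14 in Acis, where controls counted 1145, 1134 and 1164. The call of TBR1 was lost with DESeq2 and without A2780 control replicate 1 or 3 or A2780 cisplatin replicate 3. The unnamed gene ENSG00000280347 responded by -0.57 and 0.51.

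Among genes that fell less in Acis, NBEAL1 counted 304, 271 and 305 in A2780 controls and 114, 126 and 139.5 after cisplatin, against 289.8, 309 and 294 in Acis controls and 259, 261 and 229.9 after cisplatin. Controls overlapped, and treated A2780 libraries lay far below all others (difference 0.96 ± 0.11, adjusted p = 8.68e-07). TMEM161B fell by 1.04 in A2780 and responded by 0.01 in Acis. MMP16, a membrane-bound metalloproteinase, fell by 1.56 in A2780 and fell by 0.40 in Acis, from 59.7, 53.9 and 54.4 in A2780 controls and 409.7, 456 and 433 in Acis controls. The unnamed genes ENSG00000279133 and ENSG00000287616 differed by 1.05 and 0.97.

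For accessible chromatin 1 peak set per group was used, which the authors had merged over replicates by keeping peaks that overlap between them, so peaks are given without a test or replicate error. A peak within 500 bases of the start was present for 65.5%, 59.3%, 66.1% and 62.9% of tested genes in A2780 control, Acis control, A2780 cisplatin and Acis cisplatin, with 34979, 24485, 32159 and 27321 peaks in all. For the 64 genes that rose less in Acis it was present for 40, 31, 38 and 38. FOS, JUN, EGR1, DUSP1 and PPP1R15A had a peak at the start in all 4 sets. SNAI1 had one in both A2780 sets, at 5.59 and 6.11 fold enrichment as the authors' peak caller gave it, and in neither Acis set. PHLDA1 had one in all but the Acis control. The lower number of peaks in Acis sets moves with these shares, and its part in them was not tested.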

How the data were processed

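Total RNA of A2780 and Acis cells was depleted of ribosomal RNA and sequenced as stranded single-end libraries. The authors aligned reads to hg38 with STAR 2.7.3, removed duplicates with Picard and counted reads per gene with HTSeq 0.11.1, and the deposited values are raw counts per gene. Duplicate removal from single-end reads limits how many reads a short abundant gene can hold. The table also holds the authors' fold changes and p-values for pairs of groups, which were not used. For accessible chromatin the authors deposited 1 peak set per group, each peak with a fold enrichment, made by keeping peaks that overlap between replicates, so the spread between replicates is not seen. Groups came from the sample labels.

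Counts were fitted in R 4.3.3 with edgeR 4.0.16 (quasi-likelihood test, TMM scaling, filterByExpr, Benjamini-Hochberg adjustment, threshold 0.05), as 1 model of 4 groups with 3 libraries each and no covariate, with 8 residual degrees of freedom. Intervals are at 95%. Normalised counts are counts divided by TMM-scaled library size, rescaled to the mean library. Median length and the length trend used GENCODE 44 gene bounds, and slopes and medians per library used a pseudocount of 1. The method was tested on simulated data. DESeq2 1.42.0, other scalings and filters, removal of the length trend, thinning, counting the closest replicates as 1 sample, a replicate block and leaving out each library were tried as alternatives. Depth per library and counting noise limit precision as given in the text, and a count of 0 was bounded by 3 counts over the group.

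Members and gene lists were chosen with earlier results of these data known. Named by rule were the 5 largest called differences with at least 100 normalised counts in the highest group among genes that rose less, rose more, fell less, fell more or had responses of opposite sign (mean response of at least 0.5 for the first 4 classes), the 5 largest responders within the margin, and up to 3 called members of each list. Other list members were named after their values were seen. Same-numbered replicates did not pair: correlations of their deviations from group means ran from -0.18 to 0.25. Promoters were taken from a RefSeq table of GRCh38.p14, and motifs were matched by letters on both strands. Peaks were assigned to a gene within 500 bases of its start. Some list members are counted but not reported here by name.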

Additional observations from a re-analysis of the deposited data

Results flagged for a closer look

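The test of the difference between the lines itself singled out 126 of the 132 genes named by rule. The 25 named by the size of their difference are given here as the Acis response minus the A2780 response on the log2 scale. Of these, 11 were more negative in Acis: JUN at -2.56, ANKH at -2.21 or lower (a bound, since its A2780 controls held 0 reads), SNAI1 at -1.99, EGR2 at -1.78, MYLIP at -1.76, TBR1 at -1.65, NR6A1 at -0.93, H3C8 at -0.46, H3C11 at -0.41, H2BC8 at -0.40 and FMNL2 at -0.34. The other 14 were more positive: FILIP1L at 1.57, PHLDA1 at 1.20, MMP16 at 1.16, MIR17HG at 1.15, PURPL at 1.11, ENSG00000280347 at 1.08, TMEM161B and ENSG00000279133 at 1.05, ENSG00000287616 at 0.97, NBEAL1 at 0.96, ADM at 0.55, NFKBIZ at 0.54, PDCD6IP-DT at 0.51 and NIPBL-DT at 0.48.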

How the results depend on the processing

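No called difference of a named gene changed sign under the alternatives run. The majority of calls turned with total counts as library size, where 48.2% were more positive against 71%. That scaling also moved the median response of all genes to 0.10 in A2780 and 0.07 in Acis, from -0.01 and 0.01, and the median difference from 0.03 to -0.03. Removal of the length trend moved these medians to -0.10 in A2780 and -0.03 in Acis, and the median difference to 0.06. That fit applied the library scaling on top of a trend that held the overall shift of each library, so length and scaling are mixed. It called 12.6% of tested genes, against 18.9%. DESeq2, run on all genes of the table, called 867 differences more positive and 204 more negative, and among genes with a mean response of at least 1 it placed 36 as rising less in Acis, 0 rising more, 10 falling less, 0 falling more and 4 within the margin. Of the 126 named genes with a called difference, 49 lost the call with DESeq2 and 38 with the length trend removed. With the length trend removed, 373 differences were more negative, 32 genes rose less and 3 rose more. A fit kept to genes with a mean of at least 50 counts also redid the scaling on them. There 1427 were more negative, 31 rose less, 3 rose more, 3 fell less and 1 fell more. More negative differences numbered 1572 with total counts as library size and 501 with the closest pair counted as 1 sample in all 4 groups, and 10 genes rose more with no filter on low counts. A mean response of at least 0.5 gave 159 and 19 genes that rose less and more, 171 and 13 that fell less and more, and 202 within the margin, while a margin of 0.75 held 22. The slope difference was 0.249 on exon length and 0.200 among genes with at least 50 counts. Leaving out 1 library gave 1713 to 2195 more positive and 525 to 926 more negative differences (525 without Acis control replicate 1, 550 without Acis cisplatin replicate 2). It gave 56 to 67 genes that rose less, 3 (without Acis control replicate 2) to 10 (without Acis cisplatin replicate 3) that rose more, 14 to 19 that fell less, 0 (without Acis control replicate 1, Acis cisplatin replicate 2 or 3) to 3 that fell more, and 6 to 9 within the margin. Replicate numbers mark no shared batch, and with a replicate block 2188 differences were more positive and 909 more negative, with all 126 named calls as before. Leaving out 1 library took the call from 1 to 16 of the 126, and H3C11, AMOTL2, GSTO2, GSTP1, PMAIP1, BAD and PDCD6IP-DT each lost it for at least 8 of the 12 libraries. MNT and PDK1 lost it for 6 (MNT at adjusted p up to 0.0971, without Acis control replicate 1), ADM and MSH3 for 5, CDT1, FTL, GSTZ1, HES1 and PER1 for 4, and another 15 for 1 to 3, among them PHLDA1 without Acis control replicate 2 (adjusted p = 0.0523). The cause of these shifts was not tested. At these depths 354 of 428 rising genes could not be placed, and the median 95% half-width of a difference was 0.263.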
